A study of Mus musculus with 9 samples.

Results

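The transcription factors Irf8, Irf4, Batf3, Id2, Zbtb46, Nfil3, Bcl6, Spi1, Zeb2 and Runx3, which direct the conventional dendritic cell (cDC) lineage, were followed in pre-cDCs, the committed precursors of cDCs. These 10 genes were taken by their GENCODE M21 symbols from a table of 51912 genes, and each symbol matched 1 gene. Levels are given as CPM, the share of a sample's counts scaled to 1000000, normalized for library size and composition by the TMM method. All 10 genes passed the filter on low counts in both comparisons.

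Pre-cDCs were sorted from the bone marrow (BM) and spleen of mixed BM chimeras, and their RNA was sequenced in bulk. In these chimeras, lethally irradiated CD45.1/2 BL/6 mice had received equal parts of BM from WT donors (CD45.1, on BL/6) and from DNGR-1 KO donors, which carry Clec9aCre/Cre and CD45.2, so both genotypes matured in the same hosts. DNGR-1 is the C-type lectin receptor encoded by Clec9a, where the Cre knock-in removes the receptor. The Clec9aCre allele is present in the DNGR-1 KO cells and not in the WT cells, and CD45.1 and CD45.2 cells also differ in a congenic interval of chromosome 1, which holds 0 of the 10 genes. In BM there were 3 samples of each genotype, and in spleen there were 2 DNGR-1 KO samples and 1 WT sample. Each sample was pooled from 2 mice, no treatment was given, and the labels do not state the age of the mice. The study counts fewer mice than separate pools for each sample would need, so by that count some samples share mice. Which ones is not given in the sources used here. The main tests treat the samples as independent and hold no term for shared mice. The labels do not say that the samples of a group were sorted independently, so p-values measure the spread between these samples. For WT samples the label fields conflict between CD45.1 and CD45.2, and the allele of the study's methods, CD45.1, was taken. Splenic cDC1 samples were not analysed here.

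Development of cDCs runs from progenitors in the BM through circulating pre-cDCs to the cDC1 and cDC2 subsets of tissues. IRF8, partnered by BATF3, is required for cDC1s, which cross-present antigen from dead cells, whereas IRF4 is used mainly by cDC2s, which present antigen on MHC class II to CD4+ T cells. Both factors bind DNA weakly alone and are recruited to composite sites by SPI1 (PU.1), a member of the ETS family, or by BATF proteins. Upstream of this choice, NFIL3 and ZEB2 repress each other's programmes, and ID2 blocks the E proteins, of which TCF4 (E2-2) drives plasmacytoid DCs (pDCs).

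Irf8 and Irf4 were the 2 members that changed between tissues, so the 250 bases before their transcription starts are shown, from RefSeq on GRCm38.p6, 5′ to 3′ on the gene's strand. Capitals mark the core of the ETS site, GGAA on either strand, which SPI1 and other ETS proteins read. The Irf8 stretch is chr8:120736108-120736357 on the plus strand, and the Irf4 stretch is chr13:30748983-30749232 on the plus strand.
Irf8: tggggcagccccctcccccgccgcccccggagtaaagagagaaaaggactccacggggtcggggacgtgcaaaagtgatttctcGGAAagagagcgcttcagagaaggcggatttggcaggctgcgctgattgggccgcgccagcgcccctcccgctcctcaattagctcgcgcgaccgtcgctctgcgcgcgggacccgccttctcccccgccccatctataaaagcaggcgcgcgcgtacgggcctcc
Irf4: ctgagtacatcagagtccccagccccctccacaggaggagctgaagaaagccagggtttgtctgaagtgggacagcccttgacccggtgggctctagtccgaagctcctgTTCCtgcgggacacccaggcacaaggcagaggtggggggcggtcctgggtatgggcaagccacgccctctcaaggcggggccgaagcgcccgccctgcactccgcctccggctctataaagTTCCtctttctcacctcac
The Irf8 stretch held 1 core, beginning 166 bases before the start, and the Irf4 stretch held 2, beginning 140 and 19 bases before it, both on the opposite strand and so printed as TTCC. G and C made up 67.2% of the Irf8 stretch and 63.6% of the Irf4 stretch. A GGAA core lay in the same window of 93.4% of the 32851 starts in the RefSeq table. Neither stretch held the ETS-IRF composite element GGAANNGAAA, present on either strand at 2.3% of all starts, nor the IRF core AANNGAAA, present at 21.3% and overlapping the composite element. Neither held the E-box CANNTG, which E proteins read and which is present at 66.2% of starts. These are matches of letters in 1 window and say nothing of binding.
The table held 15 starts of 9 of the 10 genes, and Spi1 had no entry. The composite element was found at 1 of these starts, the internal start of Bcl6. IRF cores were found at starts of Bcl6 and Zeb2 alone, and the AP-1 site TGANTCA, at 6.75% of all starts, was found in Zbtb46 and at 1 of the Zeb2 starts. Runx3 carried the RUNX site TGTGGT, at 14% of all starts, at its upstream start. E-boxes lay at a start of 7 of the 9 genes, and the NFIL3 site TTANNTAA, at 5.43% of all starts, at none.

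Total counts were 17103806 to 23722298 per sample, so that 3 counts equal 0.126 to 0.175 CPM. Clec9a gave 905 to 1766 counts in WT BM and 2459 in WT spleen, 1 count in each DNGR-1 KO BM sample and 0 in both DNGR-1 KO spleen samples, so no sample went against its genotype label. The pre-cDC markers (Flt3, Itgax, Csf2ra, Cd74, Cd24a and Sirpa) were above 3 counts in all 9 samples. Markers of other cell types differed with tissue. The summed level of 10 T and NK cell markers was 16.4 to 48.0 CPM in BM and 1172 to 5056 CPM in spleen, although the lineage cocktail of the study's flow cytometry includes CD3 and NK1.1, and the 3 CD3 genes reached 8622 to 11155 counts in DNGR-1 KO spleen sample 2. The summed level of 7 neutrophil markers was 817 to 2637 CPM in BM and 0 to 0.977 CPM in spleen, where 6 of the 7 were at or under 3 counts in every sample. The 5 erythroid markers summed to 89.3 to 555 CPM in BM and 5667 to 33636 CPM in spleen, where the sum was mostly hemoglobin. Of the 5, 3 passed as higher in spleen and 1 as lower (edgeR, test described below). Over all genes tested, 7.28% were higher and 12.3% lower. In bulk RNA, fewer cells of a type and less RNA per cell cannot be told apart.

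**Figure D1:**
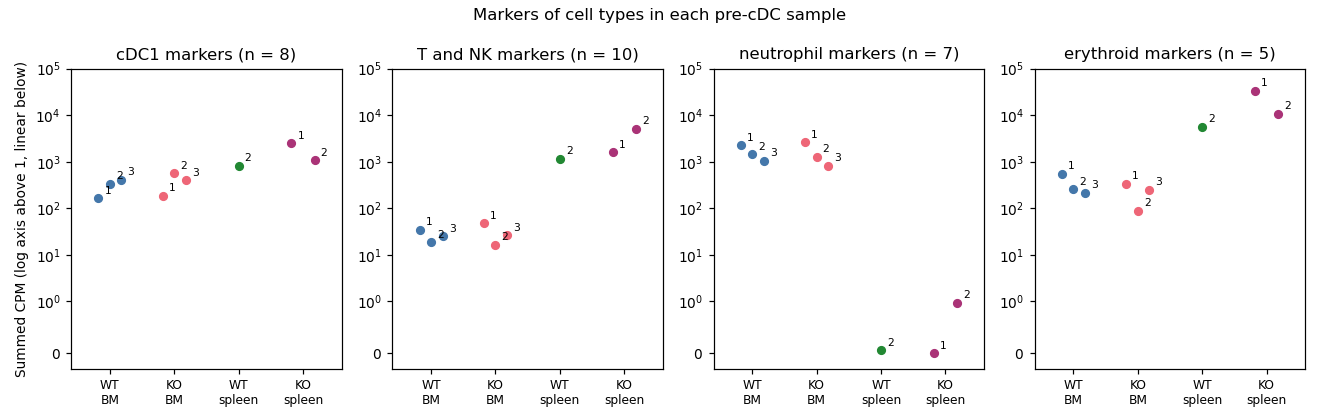
Summed CPM (log axis above 1, linear below) of the cDC1, T and NK, neutrophil and erythroid marker lists in each sample, 1 point per sample with its sample number. T and NK markers sat at 16.4 to 48.0 CPM in BM and at 1172 to 5056 CPM in spleen, and neutrophil markers were at or near 0 in spleen.

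Between spleen and BM, the pair of interferon regulatory factors moved in opposite directions. Irf4 was higher and Irf8 lower in spleen, and these were the 2 members of 10 that passed the test (edgeR quasi-likelihood test with genotype as a covariate, all 9 samples, Benjamini-Hochberg adjusted p under 0.05). Over all 13468 genes tested, 7.28% were higher and 12.3% lower in spleen by the same rule, or 19.5% in all. Id2 and Bcl6 passed as well by DESeq2 (29.3% of genes called), limma-voom (25.2%), limma-trend (26.4%) and with at least 10 counts required in every sample (20.5%), whereas Irf4 alone passed when fitted with a replicate block (9.25%). The median log2 fold change was 0.07 over the 10 members and -0.18 over all genes tested. CPM values of BM and spleen samples did not overlap for 4 of the 10, Irf8, Irf4, Id2 and Bcl6, against 26.5% of all genes tested.

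Irf8 (ENSMUSG00000041515, chr8:120736358-120756694, plus strand) had 35062 to 70158 counts per BM sample, the most of the 10. Its level was 2099, 2061 and 3219.9 CPM in WT BM samples 1 to 3 and 2326, 3424 and 2846 CPM in DNGR-1 KO BM samples 1 to 3. In spleen it was 935 CPM in the WT sample and 1680.4 and 625 CPM in DNGR-1 KO samples 1 and 2. Every spleen sample lay below every BM sample, with DNGR-1 KO spleen sample 1 closest to BM. The mean fell from 2663 ± 586 CPM (SD, n = 6) in BM to 1080 ± 542 CPM (SD, n = 3) in spleen, a fitted log2 fold change of -1.35 (SE 0.33, adjusted p = 0.0202). This call needed the single WT spleen sample, since without it the log2 fold change was -1.32 with an adjusted p of 0.0699, and among DNGR-1 KO samples alone it was -1.32 with an adjusted p of 0.130. In the fit blocked on replicate number, its log2 fold change of -1.24 had an adjusted p of 0.0851. With the mean standardised level of the genes in the congenic interval as a covariate, hereafter the congenic score, it was -1.13 with an adjusted p of 0.363. This score is confounded with genotype, which is in the same fit, and 3.5% of all genes tested passed there, beside 19.5% without it. What the loss of calls in that fit reflects was not tested.

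Irf4 (ENSMUSG00000021356, chr13:30749226-30766976, plus strand) had the largest fold change of the 10. It stood at 9.28, 27.1 and 36.1 CPM in WT BM and at 29.0, 52.7 and 24.3 CPM in DNGR-1 KO BM. Spleen levels were 285.5 CPM in the WT sample and 96.3 and 214 CPM in the DNGR-1 KO samples. All spleen samples exceeded all BM samples, and the lowest of them was again DNGR-1 KO spleen sample 1. On average Irf4 was 6.68-fold higher in spleen, 199 ± 95.6 CPM (SD, n = 3) against 29.7 ± 14.3 CPM (SD, n = 6), with a log2 fold change of 2.74 (SE 0.48, adjusted p = 0.00446). Leaving out any single sample kept the edgeR call for Irf4, whereas with the congenic score as a covariate the log2 fold change was 2.82 with an adjusted p of 0.211.

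**Figure D2:**
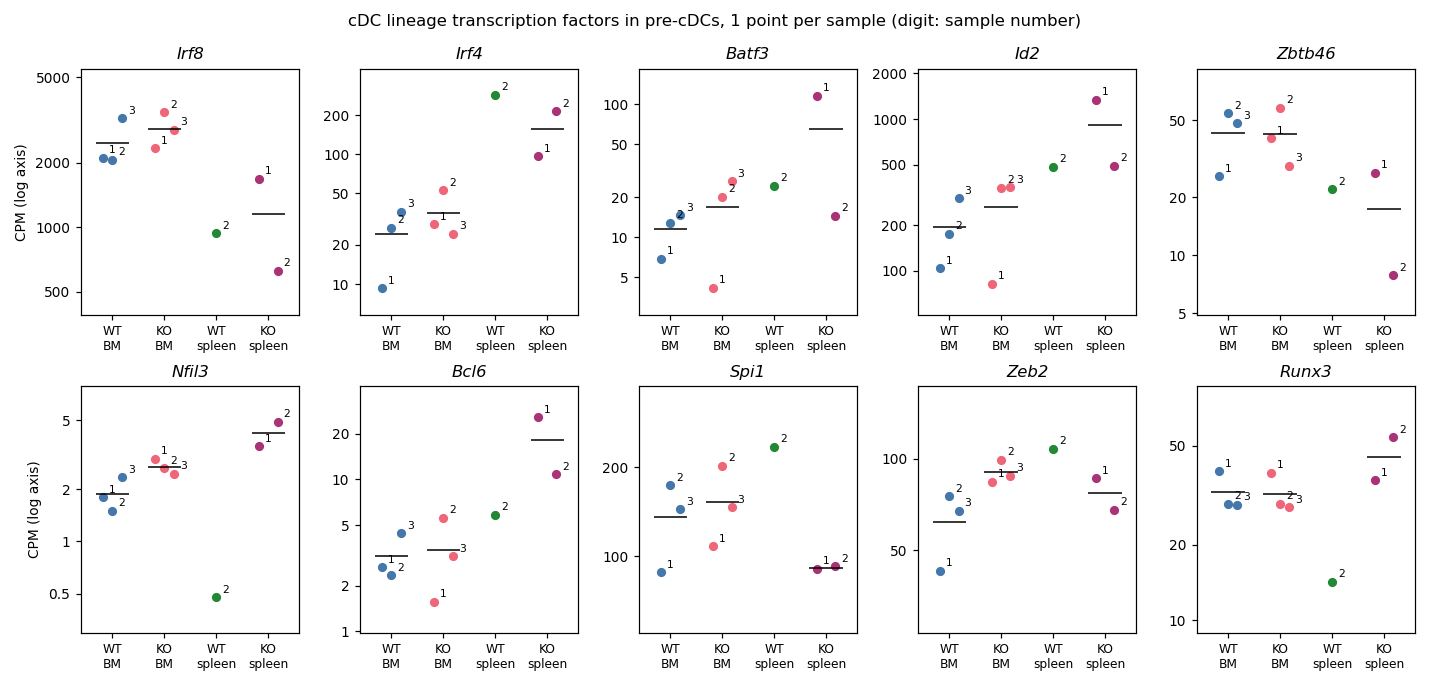
CPM (log axis, 1 scale per panel) of the 10 transcription factors in the 9 samples, 1 point per sample with its sample number, and a line at the mean of groups with more than 1 sample. Irf8 spleen samples (625 to 1680.4 CPM) lie below all BM samples (2061 to 3424 CPM), and Irf4 spleen samples (96.3 to 285.5 CPM) lie above all BM samples (9.28 to 52.7 CPM).

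The ratio of Irf8 to Irf4 within a sample compares both genes in the same library. Its log2 value was 7.81, 6.24 and 6.47 in WT BM and 6.32, 6.02 and 6.86 in DNGR-1 KO BM. In spleen it was 1.71 (WT), 4.12 and 1.54 (DNGR-1 KO). All 3 spleen values were below all 6 BM values, with a difference of -4.17 after removal of the genotype means. The exact permutation test of tissue within genotype (two-sided, 40 arrangements) gave p = 0.025, the smallest it allows, and an adjusted p of 0.1 over the 4 ratios tested, which does not pass the threshold.

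Batf3 and Id2, also among the members tied to cDC1s, were higher on average in spleen without passing the test. Batf3 (ENSMUSG00000026630, chr1:191097847-191108945, plus strand), the AP-1 family partner of IRF8, was at 6.89, 12.8 and 14.6 CPM in WT BM and at 4.16, 20.01 and 26.3 CPM in DNGR-1 KO BM. Spleen levels were 24.3 CPM (WT) and 116 and 14.4 CPM (DNGR-1 KO). DNGR-1 KO spleen sample 1 stood far above the others, and the remaining spleen samples lay within the BM range. The log2 fold change was 1.64 (SE 0.71, adjusted p = 0.137), and without that sample it was 0.52 (adjusted p = 0.625). Id2 (ENSMUSG00000020644, chr12:25093799-25097140, minus strand), the inhibitor of E proteins, gave 104, 175 and 299.8 CPM in WT BM and 81.9, 351 and 355 CPM in DNGR-1 KO BM. Its spleen levels were 483 CPM (WT) and 1345 and 491 CPM (DNGR-1 KO). The tissues did not overlap for Id2, and the log2 fold change of 1.63 (SE 0.51) had an adjusted p of 0.0527 by edgeR. By DESeq2 the adjusted p was 0.00705, so the call for Id2 depends on the test.

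Neither of the partners of these genes passed the test. Tcf4, the E protein of pDCs, averaged 199 CPM in BM and 182 CPM in spleen (log2 fold change -0.13, SE 0.23, adjusted p = 0.768). The log2 ratio of Id2 to Tcf4 was -1.26 to 1.03 in BM and 0.82, 3.11 and 2.08 in spleen, overlapping through the WT spleen sample. Its difference of 1.89 had p = 0.05 by the exact permutation test and an adjusted p of 0.1. Batf, a factor that can stand in for Batf3 and pairs with IRF4 in lymphocytes, averaged 33.0 CPM in BM and 38.8 CPM in spleen (adjusted p = 0.733, edgeR). Ratios of Batf3 to Batf overlapped between tissues, with a log2 difference of 1.25 (exact permutation p = 0.325, adjusted p = 0.433).

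**Figure D3:**
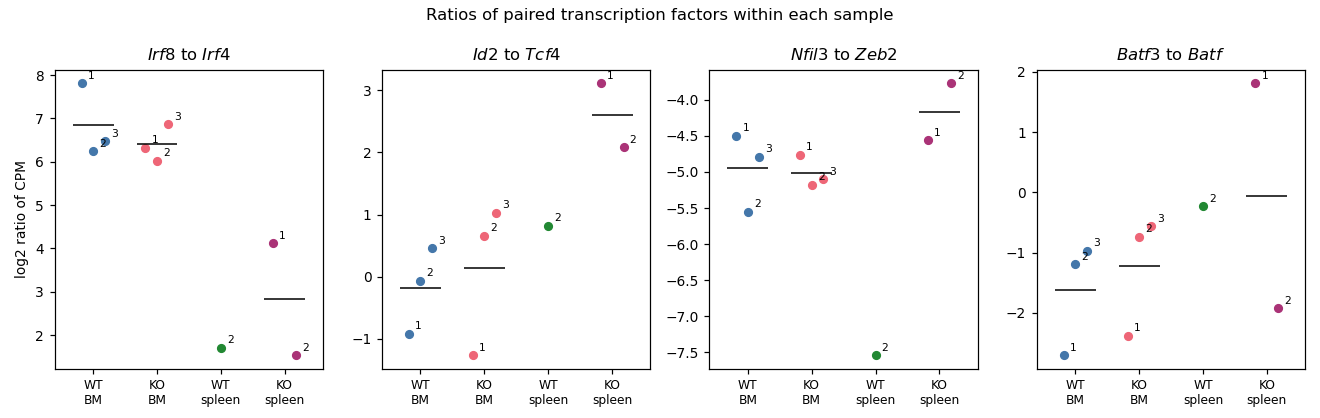
Log2 ratios of CPM within each sample for 4 pairs of transcription factors, 1 point per sample with its sample number, and a line at the mean of groups with more than 1 sample. The ratio of Irf8 to Irf4 was 6.02 to 7.81 in BM and 1.54 to 4.12 in spleen, and the other 3 ratios overlapped between tissues.

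Spi1 and Zbtb46 mark the lineage more broadly. Spi1 (ENSMUSG00000002111, chr2:91082390-91115756, plus strand), which encodes the myeloid pioneer factor PU.1, was at 88.1 to 203 CPM in BM. In spleen it was 235 CPM in the WT sample and 90.5 and 92.6 CPM in the DNGR-1 KO samples. The WT spleen sample was the highest of all 9, whereas both DNGR-1 KO spleen samples lay at the bottom of the BM range, and the log2 fold change between tissues was -0.08 (SE 0.36, adjusted p = 0.917). Zbtb46 (ENSMUSG00000027583, chr2:181387762-181459426, minus strand), a zinc finger repressor found in committed cDCs and their precursors, was at 25.6 to 58.0 CPM in BM. Its spleen levels were 22.0 CPM (WT) and 26.7 and 7.85 CPM (DNGR-1 KO), overlapping BM in 1 sample. The log2 fold change was -1.17 (SE 0.46, adjusted p = 0.108).

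Nfil3 and Zeb2, repressors in the choice of cDC subset, showed no detectable difference between tissues. Nfil3 (ENSMUSG00000056749, chr13:52967209-52981073, minus strand), which lowers Zeb2 on the way to cDC1s, was sparse, with 29 to 67 counts in BM samples and 8, 63 and 115 counts in the WT and DNGR-1 KO spleen samples. The WT spleen sample was lowest and both DNGR-1 KO spleen samples were highest by CPM, and the tissues differed by a log2 fold change of -0.11 (SE 0.76, adjusted p = 0.945). Zeb2 (ENSMUSG00000026872, chr2:44983632-45117395, minus strand), a repressor needed by pDCs and by some cDC2s, ranged from 42.8 to 99.3 CPM in BM and from 68.0 to 108 CPM in spleen (log2 fold change 0.20, SE 0.27, adjusted p = 0.674). Zeb2 shares 653 exon bases with the antisense gene Zeb2os, and since no strand setting is given in the sources used here, their reads cannot be told apart. Zeb2os had at most 64 counts in a sample, against up to 2034 for Zeb2. The log2 ratio of Nfil3 to Zeb2 was -5.55 to -4.50 in BM and -7.54, -4.56 and -3.77 in spleen, with the WT spleen sample lowest and DNGR-1 KO spleen sample 2 highest of all 9. The tissues overlapped (difference -0.48, exact permutation p = 0.5, adjusted p = 0.5).

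Bcl6 (ENSMUSG00000022508, chr16:23965052-23988852, minus strand), a repressor that cDC1s retain, was at 2.63, 2.34 and 4.43 CPM in WT BM and at 1.57, 5.56 and 3.11 CPM in DNGR-1 KO BM. It was at 5.84 CPM in WT spleen and at 25.5 and 10.8 CPM in DNGR-1 KO spleen. The tissues were separated only narrowly, between 5.56 and 5.84 CPM, and the log2 fold change of 1.91 (SE 0.66) had an adjusted p of 0.0724 by edgeR and 0.00877 by DESeq2. Runx3 (ENSMUSG00000070691, chr4:135120652-135177990, plus strand), a RUNX factor of both DCs and cytotoxic lymphocytes, was at 28.3 to 39.4 CPM in BM. Its spleen levels were 14.3 CPM in the WT sample and 36.3 and 53.9 CPM in the DNGR-1 KO samples, and the WT spleen sample was the lowest and DNGR-1 KO spleen sample 2 the highest of all 9 (log2 fold change -0.06, SE 0.40, adjusted p = 0.942). DNGR-1 KO spleen sample 2, with the highest Runx3, also had the highest summed T and NK markers, 5056 CPM, against 1595 and 1172 CPM in the other spleen samples, whose part in the Runx3 level was not tested. Without the WT spleen sample, the log2 fold changes of Nfil3, Zeb2 and Runx3 between tissues took the other sign, at 0.64, -0.24 and 0.48, and did not pass the test either.

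**Figure D4:**
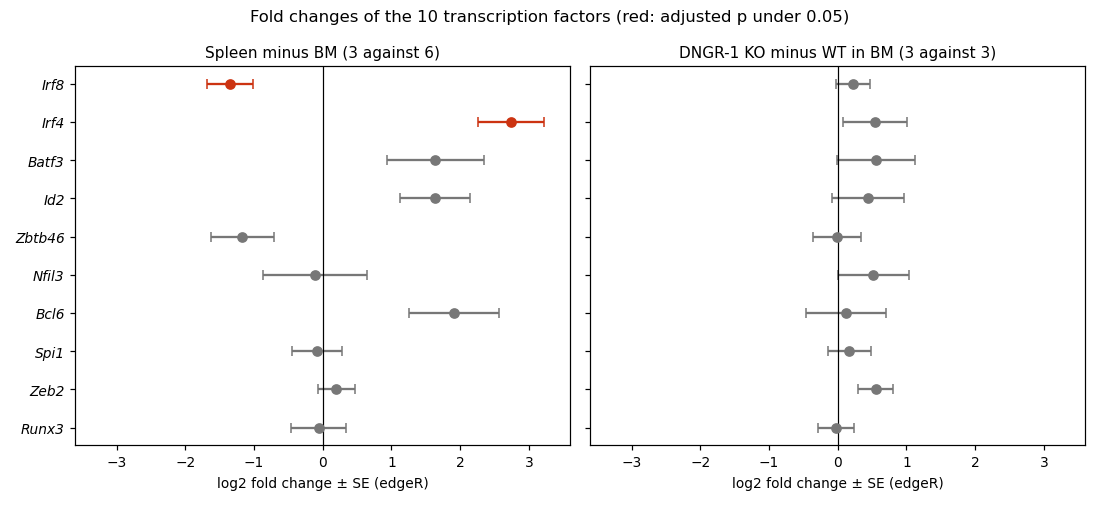
Fitted log2 fold changes with their standard errors (edgeR) for spleen minus BM (left, 3 against 6 samples) and for DNGR-1 KO minus WT in BM (right, 3 against 3 samples), with red points where the adjusted p was under 0.05. Irf8 (-1.35) and Irf4 (2.74) passed between tissues, and no member passed between BM genotypes.

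Among the 3 spleen samples, DNGR-1 KO sample 1 held the highest Irf8, Batf3, Id2, Zbtb46 and Bcl6 and the lowest Irf4 and Spi1. The WT sample held the highest Irf4, Spi1 and Zeb2 and the lowest Id2, Nfil3, Bcl6 and Runx3. DNGR-1 KO sample 2 held the highest Nfil3 and Runx3 and the lowest Irf8, Batf3, Zbtb46 and Zeb2. Being highest or lowest of 3 was therefore not particular to 1 sample. The summed level of 8 cDC1 markers (Xcr1, Itgae, Cadm1, Tlr3, Wdfy4, Naaa, Btla and Cd8a) was highest in DNGR-1 KO sample 1, 2503 CPM against 807 CPM (WT) and 1068 CPM (the other DNGR-1 KO sample). Cd8a, which T cells also express, made up 30.5% of this sum in the WT sample, 14.1% in DNGR-1 KO sample 1 and 47.9% in DNGR-1 KO sample 2, and without it the sums were 561, 2151 and 556 CPM. Each of the 8 exceeded 3 counts in the 3 spleen libraries. The hemoglobin genes Hba-a1, Hbb-bs and Hbb-bt took 3.1% of the counts of DNGR-1 KO sample 1, against 0.556% and 1.05% in the other spleen samples. The part of either in the transcription factor levels was not tested.

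Per kilobase of transcript, Irf8 was the leading member in each BM sample, and in spleen it did not separate from Id2. CPM was divided here by the length of the longest protein-coding transcript of each gene. In BM the median was 908 CPM per kb for Irf8 (724 to 1203), 121 for Id2 (41.6 to 180.2) and 71.4 for Spi1 (43.3 to 99.7), with Id2 and Spi1 overlapping. Batf3 (17.1), Zeb2 (8.72), Zbtb46 (8.35), Runx3 (7.52) and Irf4 (5.89 CPM per kb) followed with overlapping ranges, and Nfil3 (0.744 to 1.48) and Bcl6 (0.445 to 1.58) were the lowest and overlapped each other. In spleen the medians were 328 CPM per kb for Irf8 (219.5 to 590.2) and 249 for Id2 (245 to 683), which did not separate. Id2 was above Irf8 in both DNGR-1 KO spleen samples and below it in the WT sample, and in all 3 it was above Irf8 when the union of all annotated exons was used as the length instead. In spleen Irf4 had a median of 45.0 CPM per kb (20.2 to 59.9), beside Spi1 at 45.5 CPM per kb (44.5 to 115).

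Between DNGR-1 KO and WT pre-cDCs of the BM, the comparison that asks what loss of the receptor does to precursors, none of the 10 transcription factors passed the test. The count was 0 of 10 by edgeR, where 0.0307% of the 13016 genes tested passed. At an unadjusted p under 0.05 the count was also 0 of 10, beside 498 of the 13016 genes. It was likewise 0 of 10 by DESeq2, limma-voom and limma-trend, which called 0.0845%, 0.0384% and 0.0384% of genes. Fitted log2 fold changes ran from -0.02 for Runx3 to 0.56 for Batf3, with a median of 0.33 and 8 of 10 above 0. Over all genes tested the median was 0.00, and 6454 of 13016 were above 0. The 10 genes were read in the same samples, so their directions are not independent. On simulated counts, this comparison found 15.2% of genes with a log2 change of 1 and 76.7% of those with a log2 change of 2, so most differences of the smaller size would not have been detected.

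Irf8 averaged 2460.1 ± 658 CPM in WT BM and 2865 ± 549 CPM in DNGR-1 KO BM (SD, n = 3 each), a log2 fold change of 0.22 (SE 0.25, adjusted p = 0.890, edgeR). Irf4 averaged 24.2 ± 13.7 and 35.3 ± 15.2 CPM, and its log2 fold change of 0.54 had an SE of 0.47 (adjusted p = 0.865). In both genes the genotypes overlapped, and for Irf4 the lowest sample was WT BM sample 1. For Batf3 (11.4 ± 4.02 and 16.8 ± 11.4 CPM) and Id2 (193 ± 99.1 and 263 ± 156 CPM) the SD among DNGR-1 KO samples exceeded the difference between the genotype means.

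Groups did not overlap for 2 of the 10, Nfil3 and Zeb2, both higher in DNGR-1 KO BM, against 9.53% of all genes tested. Zeb2 was at 42.8, 75.1 and 67.3 CPM in WT BM and at 84.0, 99.3 and 87.9 CPM in DNGR-1 KO BM. Its log2 fold change of 0.55 (SE 0.26) had the lowest unadjusted p of the members and an adjusted p of 0.861. Nfil3 was at 1.80, 1.51 and 2.34 CPM in WT BM and at 3.0, 2.64 and 2.46 CPM in DNGR-1 KO BM, or 29 to 46 and 49 to 67 counts (log2 fold change 0.52, SE 0.52, adjusted p = 0.873). Neither gene's difference passed the test. The 4 within-sample ratios differed between BM genotypes by -0.44 (Irf8 to Irf4), 0.32 (Id2 to Tcf4), -0.07 (Nfil3 to Zeb2) and 0.39 (Batf3 to Batf) on the log2 scale. Exact permutation p-values were 0.5 to 1.0 (adjusted p = 0.933 to 1.0), where 3 against 3 samples cannot go below 0.1.

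Within BM, the samples numbered 1 of either genotype lay apart from the 4 others in Batf3, Id2, Spi1 and Runx3. Batf3 was at 6.89 and 4.16 CPM in them and at 12.8 to 26.3 CPM in the 4 others, and Id2 was at 104 and 81.9 CPM against 175 to 355 CPM. Spi1 was also lower in them (88.1 and 108 CPM against 144 to 203 CPM), and Runx3 was higher (39.4 and 38.9 CPM against 28.3 to 29.3 CPM). For Irf8, Irf4, Zbtb46, Nfil3, Bcl6 and Zeb2 they overlapped the 4 others. Within the pair, Irf4 was at 9.28 CPM (WT) and 29.0 CPM (DNGR-1 KO), and Zeb2 at 42.8 and 84.0 CPM. How many of all genes set these samples apart was not counted. The same samples had the lowest summed cDC1 markers (163 and 185 CPM against 338 to 569.8 CPM) and the highest summed neutrophil markers (2255 and 2637 CPM against 817 to 1441 CPM), whose part was not tested. These samples were singled out after their values were seen, and no test was made. With both left out, Irf8 and Irf4 still passed between tissues (adjusted p = 0.0491 and 0.0207, edgeR), where 12.5% of all genes tested passed. Between BM genotypes 0 of 10 passed, beside 0.0611% of all genes tested.

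Spleen held 1 WT sample, so its genotypes are given here sample by sample. Irf4, Spi1 and Zeb2 were below the WT sample in both DNGR-1 KO spleen samples, in samples 1 and 2 at 0.337 and 0.751 times its level for Irf4, 0.386 and 0.394 times for Spi1, and 0.797 and 0.630 times for Zeb2. The WT spleen sample also held more monocyte and macrophage markers (3475 CPM summed, against 1441 and 1282 CPM) and more cDC2 markers (1381 CPM, against 715 and 572 CPM), whose part in these levels was not tested. Id2, Nfil3, Bcl6 and Runx3 were higher in both, at 2.79 and 1.02 times for Id2, 4.37 and 1.85 times for Bcl6, 2.54 and 3.78 times for Runx3, and 7.43 and 10.2 times for Nfil3, which had 8 counts in the WT sample. Irf8, Batf3 and Zbtb46 lay on either side of the WT sample. How many of all genes had both DNGR-1 KO samples on the same side of the WT sample was not counted. These directions are therefore not read as a pattern of the members. The DNGR-1 KO spleen samples also differed from each other, and the level in sample 1 was 0.449 times that in sample 2 for Irf4, 2.69 times for Irf8 and 8.03 times for Batf3.

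Other transcription factors of dendritic cells and their progenitors were read from a list of 52, of which 47 passed the filter on low counts. In spleen 12 of the 47 were higher and 4 lower than in BM (edgeR), beside 7.28% higher and 12.3% lower over all genes tested, and the median log2 fold change was 0.21, beside -0.18. Among DNGR-1 KO samples alone 9 of the list passed (9.95% of all genes), and with the congenic score as a covariate 0 (3.5% of all genes). The 5 with the lowest adjusted p among those that rose were Junb, Relb, Nr4a1, Irf1 and Ikzf3. Junb, an AP-1 factor, averaged 95.6 CPM in BM and 333 CPM in spleen (log2 fold change 1.79, SE 0.22, adjusted p = 0.000771). Relb, the NF-κB subunit of cDC2s and mature DCs, rose by 2.44 (SE 0.38, adjusted p = 0.00259), and Nr4a1, an early response nuclear receptor, by 4.08 (SE 0.64, adjusted p = 0.00282) on the log2 scale. Irf1, an interferon-induced factor, rose by 1.48 (SE 0.27, adjusted p = 0.00517). Ikzf3 (Aiolos), an Ikaros factor of lymphocytes, had 0 to 5 counts in BM and 13, 737 and 1687 counts in the WT and DNGR-1 KO spleen samples (adjusted p = 0.000378), in the same order as the summed T and NK markers, whose part was not tested.

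The 4 that fell were Hoxa9, Gata2, Id1 and Runx2. Hoxa9, a homeobox factor of early progenitors, had 46 to 237 counts in BM and 0 in every spleen sample, at least 12.5-fold lower against a floor of 3 counts per library. Gata2, a factor of stem cells and mast cell and basophil precursors, had 3 to 245 counts in BM and 0 in spleen, and Id1, an ID protein of progenitors, had 6 to 51 counts in BM and 0 in spleen, at least 1.68-fold lower. Runx2, expressed in pDCs and progenitors, fell by 1.44 on the log2 scale (SE 0.27, adjusted p = 0.00647) from 242 to 89.2 CPM. The adjusted p-values by edgeR were 0.00401 for Hoxa9, 0.0181 for Gata2 and 0.0140 for Id1. Neutrophil markers, given above, fell in the same samples, and their part was not tested. Between BM genotypes 0 of the 46 tested passed by edgeR, beside 0.0307% of all genes tested. At an unadjusted p under 0.05 the count was also 0 of 46, beside 498 of 13016 genes.

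**Figure D5:**
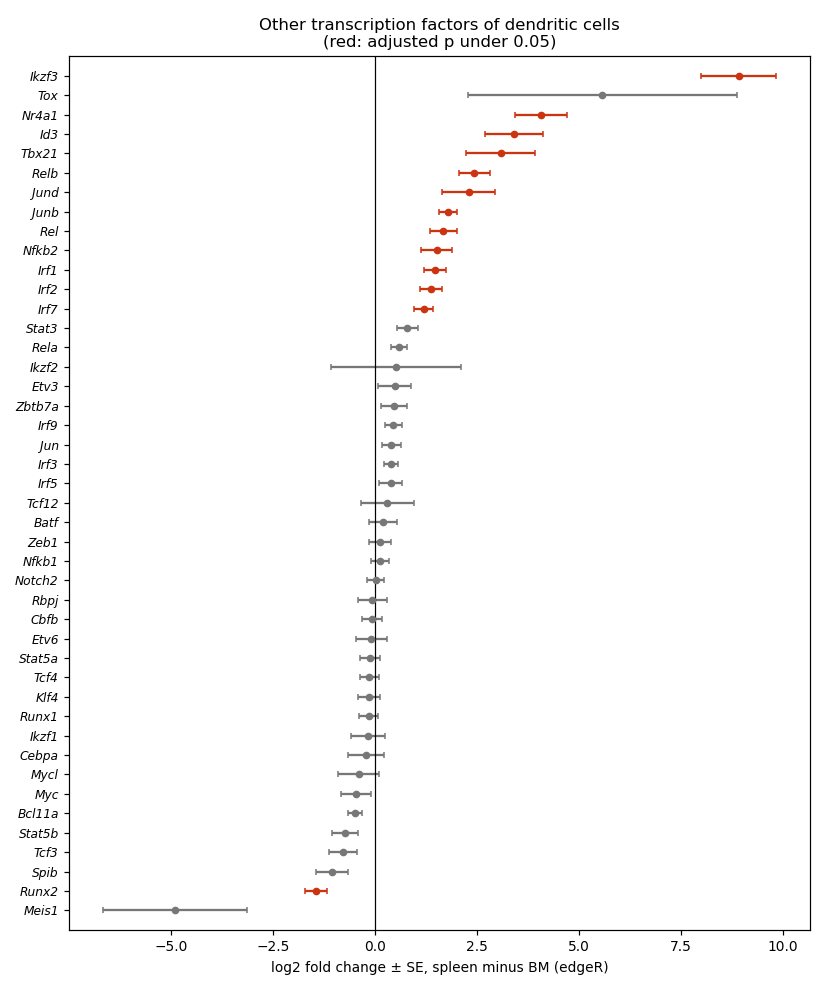
Fitted log2 fold changes with standard errors (edgeR, spleen minus BM, 3 against 6 samples) of 44 other transcription factors of dendritic cells, in red where the adjusted p was under 0.05. Id1, Gata2 and Hoxa9, with 0 counts in spleen, are not drawn, and Junb (1.79) and Runx2 (-1.44) show the 2 directions.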

How the data were processed

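Bulk RNA-seq of sorted pre-cDCs was analysed in 9 samples, grouped by the tissue and genotype of their labels. The authors deposited expected counts per gene for 51912 genes, not normalized, and 25.6% of those above 0 are fractional. They also deposited log2 values of 20810 genes after a variance stabilizing transformation (VST). The submitters' processing notes name Trimmomatic 0.36, STAR 2.5.2, RSEM 1.3.0, DESeq2 1.18.1, R 3.4.3 and GRCm38, without their roles, and strand and annotation are not given in the sources used here.

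Expected counts were rounded to whole numbers, although the design had assumed raw counts. Symbols and coordinates came from GENCODE M21. Groups were compared in R 4.3.3 with edgeR 4.0.16 (filterByExpr, TMM, quasi-likelihood test, Benjamini-Hochberg adjustment over all genes tested, threshold 0.05), tissues over 9 samples with genotype as a covariate and BM genotypes over 6. CPM used TMM library sizes, and log2 CPM in ratios a prior count of 2. DESeq2 1.42.0, limma 3.58.1 (voom, and trend on VST values), other scaling and filters, the replicate number as a block, a congenic score of chromosome 1 genes as a covariate, subsets of samples and each sample left out were alternatives. The fit was tested on simulated counts with 200 changed genes, and with none changed 0 genes were called.

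Genes named are the 10 members, Tcf4 and Batf as partners, Clec9a, the 5 other transcription factors with the lowest adjusted p in each direction, and from marker lists the genes at or under 3 counts in a tissue and the highest in spleen, other markers having been chosen after their values were seen. The members and lists were chosen with earlier results of these data known. Lengths per kilobase, the test of the genotype difference between tissues, and leaving out both BM samples numbered 1 were additions made once the data were known. The depth was 17103806 to 23722298 counts per sample, and the spread between samples set the precision. Sums of 2 further marker lists are not reported here.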

Additional observations from a re-analysis of the deposited data

Results flagged for a closer look

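The direction of the DNGR-1 KO difference in Zeb2 was opposite in the tissues. The mean CPM of DNGR-1 KO samples was 1.46 times that of WT in BM, with all 3 DNGR-1 KO samples above all 3 WT samples, and 0.714 times the WT value in spleen, with both DNGR-1 KO samples below the 1 WT sample. The means of Irf4 and Spi1 turned in the same way, and that of Runx3 in the other way, but their BM genotypes overlapped. All of these rest on the same WT spleen sample. In an edgeR fit with an interaction of genotype and tissue, chosen once the values were known, the log2 fold change of Zeb2 differed by -1.04 between spleen and BM (SE 0.45, adjusted p = 0.224), which does not pass the threshold. The single WT spleen sample is assumed there to vary like the other groups. That sample also had the highest summed monocyte and macrophage markers of the spleen samples (3475 CPM, against 1441 and 1282 CPM), whose part was not tested. With groups of at most 3 samples, no sample could be tested as an outlier.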

How the results depend on the processing

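Between tissues, 2 of the 10 members passed as reported (19.5% of all genes tested), 4 (Irf8, Irf4, Id2 and Bcl6) by DESeq2 (29.3%), limma-voom (25.2%), limma-trend on VST values (26.4%) and with at least 10 counts in every sample (20.5%), 1 (Irf4) among DNGR-1 KO samples alone (9.95%) or with the replicate block (9.25%), and 0 with the congenic score as a covariate (3.5%). Leaving out each sample gave 1 to 3 of the 10, beside 14% to 22.7% of all genes tested. The lowest count came without WT spleen sample 2 (15.8% of all genes), where Irf8 missed the threshold. Of the other transcription factors, 16 passed as reported, 9 among DNGR-1 KO samples alone, 7 of them shared with the 16, and 0 with the congenic score. The cause was not tested. Over all genes, 1246 passed between tissues with the replicate block, beside 2631 without it. Correlations of the deviations of same-numbered BM samples were 0.102, 0.0975 and -0.0782, and not every sample correlated best with its own number, so whether the numbers pair the samples is not settled by these values. With the block, 0 members passed between BM genotypes, as under each of the 16 alternatives, where 0.0148% to 0.112% of all genes passed. Small fold changes that never passed turned in sign. Between tissues these were Nfil3 (0.64 among DNGR-1 KO samples, 0.00 with the replicate block, 1.04 with the congenic score, 0.01 by limma-trend), Zeb2 (-0.24 and -0.04) and Runx3 (0.48 and 0.47, 0.03 without both BM samples numbered 1, 0.02 by limma-voom), the paired values being among DNGR-1 KO samples and with the congenic score. Between BM genotypes they were Zbtb46 (0.00 with the replicate block, 0.00 with no filter, 0.01 by limma-trend), Bcl6 (-0.01 with the replicate block, -0.04 by limma-voom) and Runx3 (0.02 with the congenic score). With each sample left out, values between tissues ran from -0.53 to 0.64 for Nfil3, -0.43 to 0.48 for Runx3, -0.74 to 0.15 for Spi1 and -0.24 to 0.40 for Zeb2, and between BM genotypes from -0.40 to 0.47 for Bcl6, -0.18 to 0.14 for Runx3, -0.08 to 0.39 for Spi1 and -0.29 to 0.20 for Zbtb46. Log2 ratios ran from -1.07 to 0.85 for Nfil3 to Zeb2 between tissues, and between BM genotypes from -0.14 to 0.97 for Batf3 to Batf, -0.12 to 1.02 for Id2 to Tcf4, -0.74 to 0.04 for Irf8 to Irf4 and -0.37 to 0.15 for Nfil3 to Zeb2. In simulated counts 17.2% of genes changed by a log2 value of 2 between tissues were recovered.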

Other observations

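The interaction test gave the other members in the same fit. The largest differences between the genotype effects of spleen and BM were 2.61 for Nfil3 (SE 1.16, adjusted p = 0.228), 1.68 for Runx3 (SE 0.56, adjusted p = 0.112) and -1.53 for Spi1 (SE 0.55, adjusted p = 0.144) on the log2 scale. None of the 10 members passed, while 1192 of 13468 genes did, and each value rests on the 1 WT spleen sample.

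Other marker lists were also summed. The 7 cDC2 markers summed to 332 to 709 CPM in BM and 572 to 1381 CPM in spleen, where Mgl2 had at most 1 count and Cd209a was the highest member. The 7 pDC markers summed to 391 to 694 CPM in BM and 321 to 684 CPM in spleen, where Klk1 had 0 counts and Bst2 was the highest. The 7 monocyte and macrophage markers summed to 1049 to 1935 CPM in BM and 1282 to 3475 CPM in spleen, led by Lyz2. The 6 pre-cDC markers summed to 1746 to 5780 CPM in BM and 6416 to 21658 CPM in spleen. Most of this sum in spleen was Cd74, at 743 to 4279 CPM in BM and 5482 to 20206 CPM in spleen. Cd74 was the 1 marker of the 6 that passed between tissues (edgeR), where 19.5% of all genes tested passed. Log2 fold changes were above 0 for 3 of the 6 and below 0 for 3, with a median of 0.01, so the list did not rise as a set.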
